A study of Saccharomyces cerevisiae with 4 samples.

Results

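The 10 histone genes of budding yeast (Saccharomyces cerevisiae) were followed in manganese-adapted and control cells. They were taken by symbol from the deposited table of 7126 features: HTA1 and HTA2 for histone H2A, HTB1 and HTB2 for H2B, HHT1 and HHT2 for H3, HHF1 and HHF2 for H4, HHO1 for the linker histone H1 and HTZ1 for the variant H2A.Z. All 10 were found, and all 10 passed the filter on low values. Each group had 2 RNA-seq libraries. The manganese-adapted cells grew for 120 h in rich medium with 2.5 mM manganese sulfate, and the control cells for 18 h in the same medium at an estimated 0.0036 mM manganese, both to the stationary stage. All libraries came from the MATa strain CRY, in which ade2, his3, leu2, trp1 and ura3 are deleted. Manganese and culture time changed together, so their effects cannot be told apart. Whether the replicates were separate cultures is not stated in the labels, and the p-values describe only how far these libraries spread, which may be technical spread.

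Histones H2A, H2B, H3 and H4 form the octamer around which DNA is wound in a nucleosome, the linker histone binds where DNA enters and leaves it, and H2A.Z replaces H2A in nucleosomes next to many promoters. In budding yeast each core histone is encoded by a pair of genes, and every gene stands head to head with a gene of its partner histone, H2A with H2B and H3 with H4, so that both are read from a shared upstream region. Transcription of the core genes is restricted to late G1 and S phase, when new DNA needs new nucleosomes. Spt10 activates them through paired elements in those regions, and the HIR complex with the chaperones Asf1 and Rtt106 represses them at other times at every locus but that of HTA2 and HTB2. Unlike the main histone mRNAs of animals, those of yeast carry poly(A) tails, and HTZ1 is read outside S phase too.

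The shared upstream regions are shown because the members were described locus by locus. In the R64 assembly, the genome of the sacCer3 build named in the processing notes, 817 bases separate the start codons of HTB1 and HTA1 on chromosome IV, 699 those of HTA2 and HTB2 on II, 646 those of HHF1 and HHT1 on II, and 676 those of HHT2 and HHF2 on XIV. The following stretches of these regions lie at chrIV:915074-915191, chrII:236070-236162, chrII:255906-255998 and chrXIV:576308-576400, all on the plus strand and at least 100 bases from either start codon, with capitals for the Spt10 element:
HTB1-HTA1: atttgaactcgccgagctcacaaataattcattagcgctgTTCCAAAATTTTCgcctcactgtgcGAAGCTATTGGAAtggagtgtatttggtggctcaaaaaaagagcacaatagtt
HTA2-HTB2: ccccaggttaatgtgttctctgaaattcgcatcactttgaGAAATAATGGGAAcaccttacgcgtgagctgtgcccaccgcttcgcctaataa
HHF1-HHT1: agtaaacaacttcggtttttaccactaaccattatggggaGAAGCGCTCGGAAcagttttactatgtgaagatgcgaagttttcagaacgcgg
HHT2-HHF2: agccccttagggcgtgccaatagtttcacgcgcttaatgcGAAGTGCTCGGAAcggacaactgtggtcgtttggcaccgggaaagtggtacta

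The element was searched on both strands as TTCC and TTC with any 6 bases between them. Between HTB1 and HTA1 it occurred 2 times, and in each of the other regions 1 time. Among 348 regions of 600 to 900 bases between divergent genes, 25.6% held at least 1 match. Motifs of the G1/S factors SBF (CGCGAAA) and MBF (ACGCG), which can overlap each other, were searched in the same way. The MBF motif occurred 2 times between HTB1 and HTA1, 4 times between HTA2 and HTB2, 1 time between HHF1 and HHT1 and 3 times between HHT2 and HHF2. Of such regions 37.1% held any match and 2.59% held 4 or more. Of the 4 matches between HTA2 and HTB2, 2 overlap on opposite strands, as ACGCGT. The SBF motif occurred 2 times between HTB1 and HTA1, 1 time between HHT2 and HHF2 and in neither of the other regions, against 8.62% of such regions with any match. Between HTB1 and HTA1 an SBF match shares bases with an MBF match. A TATA box motif (TATAAA) occurred 4 times between HTB1 and HTA1, 0 times between HTA2 and HTB2, 4 times between HHF1 and HHT1 and 2 times between HHT2 and HHF2. For this motif 74.1% of such regions held any match and 6.90% held 4 or more. In the 500 bases before the start codon, HHO1 held no Spt10 element, 1 SBF motif and 2 MBF motifs, and HTZ1 held none of the 4 motifs. In that window 13.7% of 6000 genes held the Spt10 element, 5.82% the SBF motif, 23.9% the MBF motif and 60.5% the TATA box. These matches describe letters only.

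Within the coding sequences, reads of the copies of a histone could be separated only where those sequences differ. HTA1 and HTA2 differed at 25 of 399 coding bases, HTB1 and HTB2 at 48 of 396, HHT1 and HHT2 at 28 of 411, and HHF1 and HHF2 at 8 of 312. The longest stretch identical between copies was 65 bases for H2A, 35 for H2B, 74 for H3 and 80 for H4. Of all coding windows of 50 bases, 21.3% were identical between the H4 copies, 12.2% between the H3 copies, 4.57% between the H2A copies and 0% between the H2B copies. Untranslated regions and read length were not used, so the share of reads that could not be placed was not measured. The coding stretches of 120 bases with the most differences are shown for H2A and H4, the pairs whose copy shares differed most between the groups, with the bases that differ between copies in capitals. They cover coding bases 145 to 264 of the H2A genes (chrIV:915674-915793, plus strand, and chrII:235529-235648, minus strand) and 103 to 222 of the H4 genes (chrII:255463-255582, minus strand, and chrXIV:576829-576948, plus strand):
HTA1: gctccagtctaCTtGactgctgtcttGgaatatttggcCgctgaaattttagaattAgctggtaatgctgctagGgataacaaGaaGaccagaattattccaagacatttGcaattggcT
HTA2: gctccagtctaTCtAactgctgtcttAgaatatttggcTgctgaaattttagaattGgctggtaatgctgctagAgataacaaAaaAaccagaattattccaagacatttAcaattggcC
HHF1: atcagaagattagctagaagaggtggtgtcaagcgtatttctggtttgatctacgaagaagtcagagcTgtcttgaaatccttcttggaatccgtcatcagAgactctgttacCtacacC
HHF2: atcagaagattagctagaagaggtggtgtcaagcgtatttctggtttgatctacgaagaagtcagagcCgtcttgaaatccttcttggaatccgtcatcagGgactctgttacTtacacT

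The H2A stretch held 11 differences and the H4 stretch 4. The values of the H4 copies, and to a lesser degree those of the H2A and H3 copies, are therefore uncertain where the authors' counting met reads that fit both. The sources used here do not say how such reads were counted. No annotated gene on either strand overlapped the coding span of any histone gene.

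The libraries held 12307870 to 14184276 recovered reads, and 6296 features were tested. The histone genes drew 946 to 21032 reads per library, so counting error alone was at most 3.25% of a value. Replicates spread more than counting error. Their chi-square against it averaged 10.5 per feature in manganese-adapted and 23.0 in control libraries. Of the tested features 68.5% passed the threshold, 33.6% as higher and 34.9% as lower in manganese-adapted libraries (limma, adjusted p under 0.05 over all features), and for 85.7% the groups did not overlap. All 6 markers of a cells were detected, and they summed to 306 and 306 CPM in manganese-adapted and 288 and 315 CPM in control libraries. By gene, STE2 (log2 fold change -0.81), MFA2 (-0.59) and MFA1 (-0.39) were called lower, and BAR1 (0.92) and STE6 (0.45) higher. AGA2 (0.19) was not called. The 4 markers of alpha cells, none of them at 0, summed to 138 and 149 CPM in manganese-adapted and 69.5 and 66.7 CPM in control libraries. Most of that sum came from SAG1 (0.91), which was called higher, as were STE3 (2.09) and MF(ALPHA)1 (1.74). MF(ALPHA)2 (-0.59) was called lower. The part of these markers in the results below was not tested.

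Of the 10 histone genes, 2 rose, 3 fell and 5 did not pass, which is 5 of 10 called against 68.5% of all features. HHF1 and HHO1 rose, and HTA2, HTB2 and HTZ1 fell. The groups did not overlap for 9 of the 10, all but HTB1, against 85.7% of all features: 4 lay higher in manganese-adapted libraries, against 42.4% of features, and 5 lower, against 43.3%. The median log2 fold change of the members (log2(CPM + 1) of the manganese-adapted libraries less that of the controls) was -0.10, beside -0.01 for all features tested. Called members thus went both ways, and in no copy pair did both copies pass in this fit. In bulk RNA, a change in the share of cells that make histone mRNA and a change in histone mRNA per cell cannot be told apart.

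**Figure D1:**
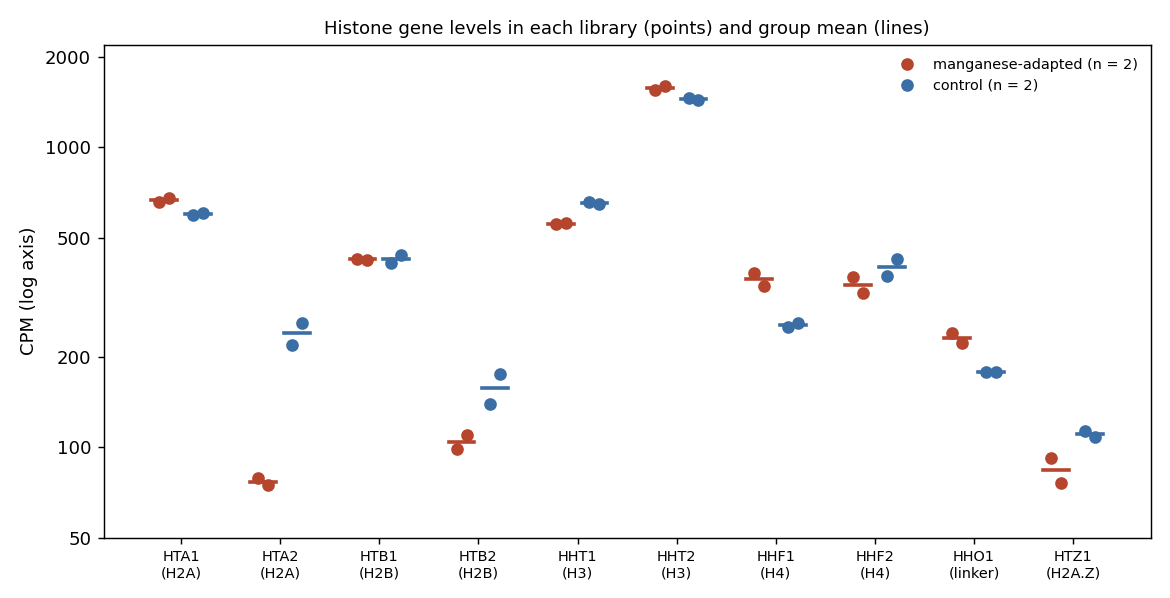
Level of each histone gene in CPM (reads scaled to the library size, log axis) in the 2 manganese-adapted and 2 control libraries; points are libraries and lines group means. HTA2 is the gene whose groups lie farthest apart, at 79.3 and 74.7 CPM in manganese-adapted and 219 and 261 CPM in control libraries.

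Coding length bears on these directions and is given beside them. Across tested features the log2 fold change rose with coding length (Spearman rho 0.40, across features, which are not independent replicates), and 851 features of up to 500 coding bases had a median of -0.59. All members but HHO1, which has 777, are shorter than 500 coding bases. With that trend removed, 7 members were called higher (all but HTA2, HTB2 and HTZ1), 1 lower (HTA2), and their median was 0.45. Both copies then passed for H2A, in opposite directions, and for H3 and H4, as higher. Of all features 66.9% passed in that fit, 33.2% as higher and 33.8% as lower. Copies of 1 histone have the same coding length, so comparisons between them do not move with this trend. The cause of the trend was not tested.

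**Figure D2:**
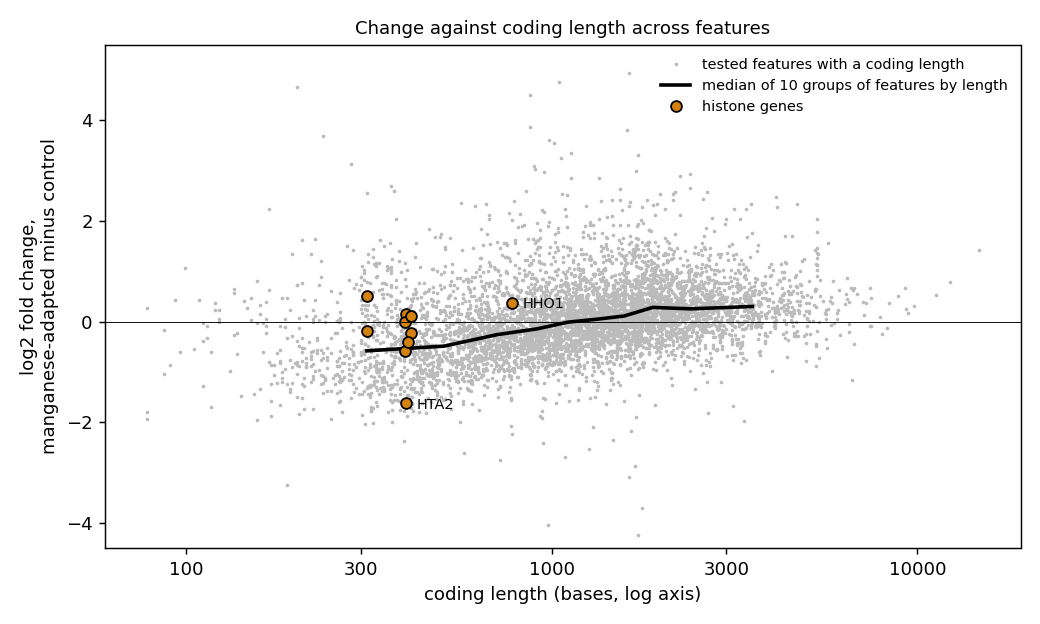
Log2 fold change (manganese-adapted minus control) of tested features against coding length in bases (log axis), with the medians of 10 groups of features by length as a line and the histone genes as filled circles. The median is -0.58 in the shortest group and 0.30 in the longest, and HTA2 at -1.62 lies below the line while most histone genes lie above it.

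HTA2, one of the H2A genes (YBL003C, chromosome II at 235394 to 235792, minus strand, 1 exon), had 79.3 and 74.7 CPM in manganese-adapted libraries, against 219 and 261 CPM in control libraries. Both manganese-adapted values lay below both controls, by far more than the gap between replicates. It fell by 1.62 ± 0.10 on the log2 scale (SE; limma adjusted p 3.3e-07), a CPM ratio of 0.321. HTA2 stood in the 96.4th percentile of all tested features by size of change. It was called lower under all 17 alternatives, with log2 fold changes from -1.75 to -1.11, the last with the length trend removed.

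HTA1, the other H2A gene (YDR225W, chromosome IV at 915530 to 915928, plus strand), had 659 and 677 CPM in manganese-adapted libraries, against 595 and 605 CPM in control libraries. The manganese-adapted values were the higher ones, without overlap, but the log2 fold change of 0.15 (95% interval -0.06 to 0.37) did not pass (limma adjusted p 0.18). With the length trend removed it was 0.67 and passed. HTA1 made up 89.3% and 90.1% of the CPM of the H2A pair in manganese-adapted libraries, against 73.1% and 69.9% in control libraries, a difference of 18.2 percentage points. The shares did not overlap, with a two-sided exact permutation p of 0.333 over the 4 samples. That is the smallest p that 2 against 2 samples allow, both for this share and after adjustment over the 4 copy pairs.

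The H2B genes stand opposite the H2A genes. HTB2 (YBL002W, chromosome II at 236492 to 236887, plus strand), which shares its upstream region with HTA2, had 99.1 and 110 CPM in manganese-adapted libraries, against 139 and 176 CPM in control libraries. The groups did not overlap, and the controls differed from each other by about as much as the nearer control from the adapted libraries. HTB2 fell by 0.58 ± 0.11 on the log2 scale (SE; limma adjusted p 0.00095), and with the length trend removed the value was -0.06 (adjusted p 0.62). HTB1 (YDR224C, chromosome IV at 914317 to 914712, minus strand), which shares its upstream region with HTA1, had 426 and 422 CPM in manganese-adapted libraries, against 412 and 437 CPM in control libraries. Its groups overlapped, and the log2 fold change was -0.0013 (95% interval -0.20 to 0.20, limma adjusted p 0.99). That sign turned under library size only (0.02) and in DESeq2 (0.0039), and with the length trend removed HTB1 passed at 0.52. HTB1 made up 81.1% and 79.4% of the H2B pair in manganese-adapted libraries, against 74.7% and 71.3% in control libraries (exact permutation p 0.333).

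At the chromosome II locus of H2A and H2B both genes thus fell in the main fit, but not by the same amount. Removing the length trend left HTA2 at -1.11, still called lower, and HTB2 at -0.06, not called. Per kilobase of coding length, the CPM ratio of HTA2 to HTB2 was 0.794 and 0.676 in manganese-adapted libraries, against 1.56 and 1.47 in control libraries. At the chromosome IV locus, the ratio of HTA1 to HTB1 was 1.54 and 1.59 in manganese-adapted libraries, against 1.43 and 1.37 in control libraries. Neither pair of groups overlapped (exact permutation p 0.333 for each, the smallest possible). On the outer sides of the chromosome II locus, UTP20, next to HTA2, had a log2 fold change of -0.08 (limma adjusted p 0.43), and ECM15, next to HTB2, fell by 0.96. On those of the chromosome IV locus, ADK1, next to HTA1, fell by 1.16. CRF1, next to HTB1, rose, with means of 114 ± 0.649 CPM in the adapted libraries and 39.9 ± 1.05 CPM in the controls (SD, n = 2 each; limma adjusted p 2.49e-07).

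**Figure D3:**
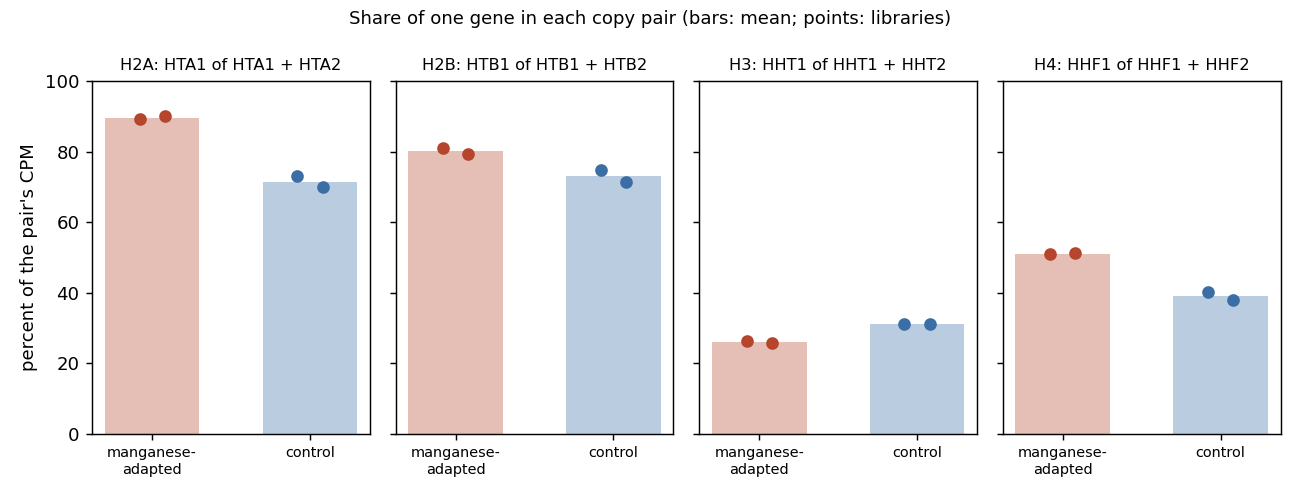
Share of HTA1, HTB1, HHT1 and HHF1 in the summed CPM of their copy pair (percent), with bars for the mean and points for the 2 libraries of each group. HTA1 averages 89.7% in manganese-adapted and 71.5% in control libraries, and HHF1 51.0% in manganese-adapted and 39.1% in control libraries.

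HHF1, an H4 gene (YBR009C, chromosome II at 255373 to 255684, minus strand), had 382 and 345 CPM in manganese-adapted libraries, against 252 and 259 CPM in control libraries. Both adapted libraries were higher, and HHF1 rose by 0.50 ± 0.09 on the log2 scale (SE; limma adjusted p 0.00053), a CPM ratio of 1.42. With the length trend removed the rise was 1.08. HHF2, the other H4 gene (YNL030W, chromosome XIV at 576727 to 577038, plus strand), had 369 and 327 CPM in manganese-adapted libraries, against 372 and 426 CPM in control libraries. The higher adapted library lay just below the lower control, and the log2 fold change of -0.20 (95% interval -0.42 to 0.03) did not pass (limma adjusted p 0.11). It passed as lower without control replicate 1 (-0.29, adjusted p 0.016) and as higher with the length trend removed (0.38, adjusted p 0.011). Without control replicate 2 it was -0.10 (adjusted p 0.44), and without manganese-adapted replicate 2 it was -0.11 (adjusted p 0.50). HHF1 made up 50.8% and 51.3% of the H4 pair in manganese-adapted libraries, against 40.3% and 37.8% in control libraries (exact permutation p 0.333). By these values HHF2 was the more abundant copy in control libraries, and in manganese-adapted libraries the copies were nearly equal. How reads that fit both H4 copies were counted is not known, so this order is uncertain.

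Neither H3 gene passed. HHT2 (YNL031C, chromosome XIV at 575640 to 576050, minus strand), an H3 gene and the partner of HHF2, had 1551 and 1600 CPM in manganese-adapted libraries, against 1455 and 1442 CPM in control libraries. The adapted libraries were higher without overlap, and the log2 fold change of 0.12 (95% interval -0.16 to 0.41) did not pass (limma adjusted p 0.42; 0.63 on the log2 scale, and passing, with the length trend removed). HHT1 (YBR010W, chromosome II at 256331 to 256741, plus strand), the partner of HHF1, had 554 and 558 CPM in manganese-adapted libraries, against 655 and 648 CPM in control libraries. The adapted libraries were lower, with replicates close together in either group, and the log2 fold change was -0.23 (limma adjusted p 0.055). HHT1 passed as lower in DESeq2 (adjusted p 0.039) and with upper-quartile factors (0.042), and as higher with the length trend removed (0.28, adjusted p 0.018). Its share of the H3 pair was 26.3% and 25.9% in manganese-adapted libraries, against 31.0% and 31.0% in control libraries (exact permutation p 0.333).

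HHT1 and HHF1 share an upstream region. In the main fit HHF1 rose and HHT1, at a log2 fold change of -0.23, did not pass. Both were called higher with the length trend removed, HHF1 at 1.08 and HHT1 at 0.28. Per kilobase of coding length, the CPM ratio of HHT1 to HHF1 was 1.10 and 1.23 in manganese-adapted libraries, against 1.98 and 1.90 in control libraries. For HHT2 and HHF2 the ratio was 3.19 and 3.71 in manganese-adapted libraries, against 2.97 and 2.57 in control libraries. In both cases the groups did not overlap (exact permutation p 0.333). H3 and H4 genes differ in coding length (411 and 312 bases), so the length trend touches these ratios more than the shares within a copy pair. Of the genes on the outer sides, FLR1, next to HHF1, rose by 1.16 and IPP1, next to HHT1, fell by 0.90, while SIW14, next to HHT2, fell by 0.41 and KTR5, next to HHF2, was at 0.11 and did not pass.

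Summed over the 8 core genes, the level was 4120 and 4113 CPM in manganese-adapted libraries, against 4100 and 4253 CPM in control libraries, and the groups overlapped (two-sided exact permutation p 1). Per kilobase of coding length, the H2A genes summed to 1850 and 1883 in manganese-adapted and 2041 and 2169 in control libraries, and the H2B genes to 1326 and 1341 in manganese-adapted and 1391 and 1548 in control libraries. For both sums the adapted libraries were lower without overlap (exact permutation p 0.333). HTA1 and HTB1, which make up most of these sums, were called higher with the length trend removed (0.67 and 0.52). The H3 genes summed to 5123 and 5252 CPM per kilobase in manganese-adapted and 5135 and 5085 in control libraries, and the H4 genes to 2407 and 2154 in manganese-adapted and 2000 and 2196 in control libraries. These groups overlapped (exact permutation p 0.667 for each). The ratio of H2A to H2B genes averaged 1.40 ± 0.01 in manganese-adapted and 1.43 ± 0.05 in control libraries, and that of H3 to H4 genes 2.28 ± 0.22 in manganese-adapted and 2.44 ± 0.18 in control libraries (SD, n = 2 each; ratios of CPM per kilobase). As ratios of manganese-adapted to control means, these sums were 0.887 for H2A, 0.908 for H2B, 1.02 for H3 and 1.09 for H4, beside 0.321 for HTA2 and 1.42 for HHF1 alone.

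HHO1, the linker histone gene (YPL127C, chromosome XVI at 308828 to 309604, minus strand), had 241 and 222 CPM in manganese-adapted libraries, against 178 and 179 CPM in control libraries. Both adapted libraries lay above both controls. HHO1 rose by 0.37 ± 0.08 on the log2 scale (SE; limma adjusted p 0.0024) and by 0.58 with the length trend removed. It was called higher under all 17 alternatives. Set against the mean of the H3 and H4 sums per kilobase, HHO1 stood at 0.082 and 0.077 in manganese-adapted libraries, against 0.064 and 0.063 in control libraries (exact permutation p 0.333). HHO1 has a longer coding sequence than the H3 and H4 genes, so the length trend touches this ratio too. Log2 fold changes with that trend removed were 0.58 for HHO1, 0.28 for HHT1, 0.63 for HHT2, 1.08 for HHF1 and 0.38 for HHF2. Of the neighbours of HHO1, TBF1 was at 0.21 and did not pass, and NAN1 fell by 0.81.

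HTZ1, the H2A.Z gene (YOL012C, chromosome XV at 303579 to 303983, minus strand), had 92.1 and 76.2 CPM in manganese-adapted libraries, against 114 and 109 CPM in control libraries. The adapted libraries were lower without overlap. HTZ1 fell by 0.40 ± 0.10 on the log2 scale (SE; limma adjusted p 0.0048). Leaving out manganese-adapted replicate 2 ended the call (-0.27, adjusted p 0.079), and removing the length trend gave 0.11 (adjusted p 0.40). HTZ1 made up 10.9% and 9.08% of the summed H2A and H2A.Z CPM per kilobase in manganese-adapted libraries, against 12.1% and 11.0% in control libraries, with the nearest libraries of the groups almost equal. Its coding sequence matched that of HTA1 at 61.2% of 420 aligned columns. HRD1, on one side of HTZ1, was at 0.23 and did not pass, and PLB3, on the other, rose by 0.85.

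**Figure D4:**
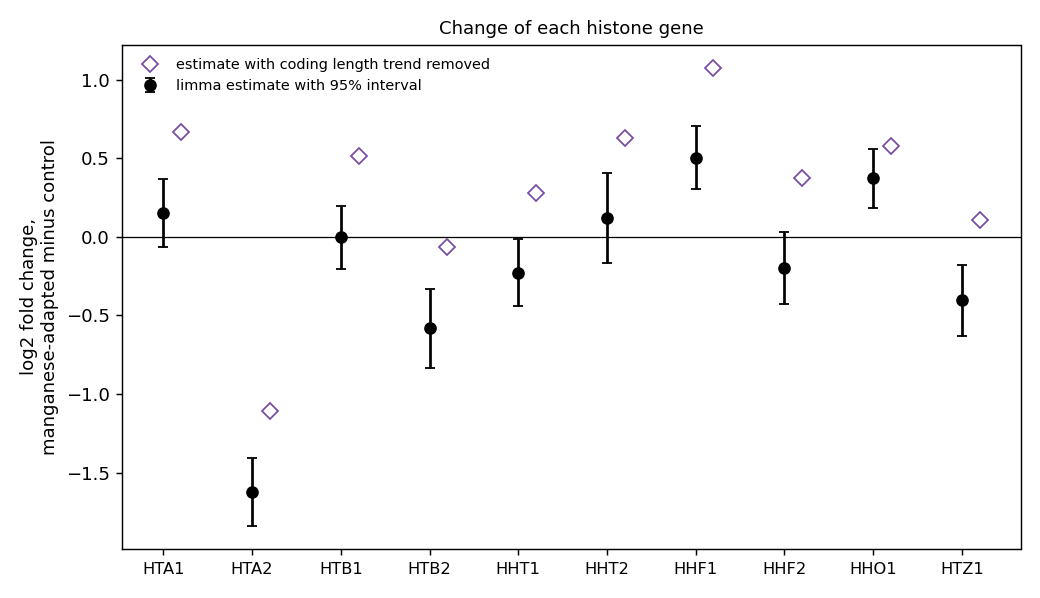
Log2 fold change of each histone gene (manganese-adapted minus control); filled circles with bars are limma estimates with 95% intervals, and open diamonds the estimates with the coding length trend removed. HTA2 is below 0 by either estimate, HHF1 and HHO1 are above 0 by either, and HTB2 is near 0 (-0.06) once the trend is removed.

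Compared per kilobase of coding length, HHT2 was the most abundant histone mRNA in both groups, at 3834 CPM per kilobase in manganese-adapted and 3525 in control libraries, in the 99.7th and 99.4th percentile of tested genes. In manganese-adapted libraries HTA1 (1674), HHT1 (1354), HHF1 (1164), HHF2 (1116), HTB1 (1070), HHO1 (298), HTB2 (264), HTZ1 (208) and HTA2 (193) followed. The ranges of the 2 libraries overlapped there for the neighbours HHF1 and HHF2, HHF2 and HTB1, and HTZ1 and HTA2. In control libraries HHT1 (1585), HTA1 (1504), HHF2 (1279), HTB1 (1072), HHF1 (818), HTA2 (601), HTB2 (398), HTZ1 (275) and HHO1 (230) followed, with no overlap between neighbours. HTA2 was thus the seventh of the 10 in control libraries and the last in manganese-adapted libraries, and HHO1 was the last in control libraries.

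The 5 genes outside the family whose centred log2(CPM + 1) values in the 4 libraries lay nearest to the mean profile of the 8 core genes were PML1, SVL3, GYL1, RPC37 and DUS1, at Euclidean distances of 0.010 to 0.021. That mean profile is set mostly by HTA2 and stands for no single histone gene.

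Other genes of histone supply are read against the 33.6% of all tested features called higher and the 34.9% called lower. Of 12 regulators of the histone genes, 5 rose and 5 fell (median -0.0002; 2 and 6 with the length trend removed, against 33.2% and 33.8% of features). Without manganese-adapted replicate 1, 3 of them were called lower. SPT10, the gene of the activator whose element was searched above, rose by 0.92, with 77.4 and 71.0 CPM in manganese-adapted libraries, against 42.0 and 35.5 CPM in control libraries. SWI4, the DNA-binding subunit of SBF, fell by 0.82, with 40.6 and 49.3 CPM in manganese-adapted libraries, against 73.0 and 86.9 CPM in control libraries. YTA7, a chromatin ATPase that acts at histone genes, rose by 0.75, and ASF1, the H3-H4 chaperone, fell by 0.63 (limma adjusted p at most 0.00025 for these 4).

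Of 16 genes for histone chaperones, import and deposition, 5 rose and 6 fell (median 0.03), which is near the 33.6% and 34.9% of all features. HAT1, an acetyltransferase of new H4, fell by 0.89 and CHZ1, a chaperone of H2A.Z, by 0.84. POB3, a subunit of the FACT complex, rose by 0.72 and CAC2, a subunit of chromatin assembly factor 1, by 0.69. Of 13 subunits of SWR1, the complex that inserts H2A.Z, 5 rose and 2 fell (median 0.13; 3 and 3 with the length trend removed), against 33.6% and 34.9% of all features. The number called higher was 3 without either manganese-adapted replicate, and the number called lower was 1 without manganese-adapted replicate 1. SWC7 (0.71), SWC5 (0.63) and VPS72 (0.52) rose and YAF9 fell by 0.49. SWC7 was low, at 2.36 and 2.13 CPM in manganese-adapted and 0.991 and 0.977 CPM in control libraries, and was not called in DESeq2. YAF9 was not called with the length trend removed or without manganese-adapted replicate 1.

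Of 19 histone acetyltransferase, deacetylase and methyltransferase genes, 4 rose and 5 fell (median 0.11; 2 and 5 with the length trend removed), against 33.6% and 34.9% of all features. Without manganese-adapted replicate 2, 3 of them were called lower. SAS3, a catalytic subunit of the NuA3 acetyltransferase, rose by 1.08, and HOS2, a deacetylase, fell by 0.98. RTT109, which acetylates new H3, fell by 0.61. RTT109 and HAT1, both called lower, are counted among the chaperone, import and deposition genes as well. CSE4, the centromeric H3 variant, averaged 49.8 ± 1.42 CPM in manganese-adapted and 57.2 ± 5.64 CPM in control libraries (SD, n = 2 each) and did not pass (log2 fold change -0.19, limma adjusted p 0.11; 0.08 on the log2 scale with the length trend removed, adjusted p 0.48). It was called lower without control replicate 2. It was one of 11 other chromatin proteins, of which 3 rose and 5 fell (median -0.19), against 33.6% and 34.9% of all features. HMO1 fell by 1.07, NHP6A by 1.05, NHP6B by 0.60 and ABF2, the packaging protein of mitochondrial DNA, by 0.58. All 4 have HMG boxes, a DNA-bending fold. NHP6B (-0.02) and ABF2 (-0.17) did not pass with the length trend removed.

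Genes of S phase, when histone genes are normally read, formed the last list. Of 17, 11 fell and 4 rose, against 34.9% and 33.6% of all features, with a median of -0.56 (12 lower and 3 higher with the length trend removed). POL30, the replication clamp, had 5.97 and 7.34 CPM in manganese-adapted libraries, against 28.0 and 43.0 CPM in control libraries. RNR1, the large subunit of ribonucleotide reductase, had 108 and 97.3 CPM in manganese-adapted libraries, against 310 and 431 CPM in control libraries. CLB6, an S-phase cyclin, fell by 0.74 and RFA3, a subunit of replication protein A, by 0.71 (-0.17 and not passing with the length trend removed). These counts stand beside those of the histone genes as a description, and no test of the difference between the lists was made.

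**Figure D5:**
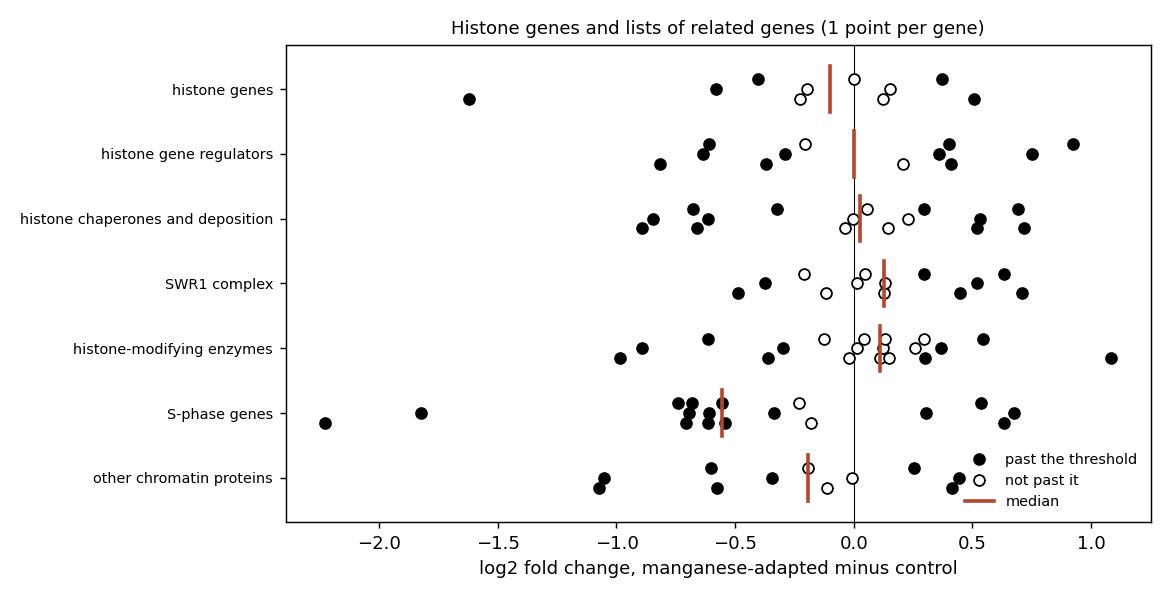
Log2 fold change (manganese-adapted minus control) of the histone genes and of the genes in 6 related lists, 1 point per gene, filled where past the threshold (limma adjusted p under 0.05), with the median of each list as a vertical line. The S-phase genes have the lowest median (-0.56), and the histone genes spread from -1.62 to 0.50 around -0.10.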

How the data were processed

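RNA-seq libraries were made with a TruSeq RNA kit, per the labels' protocols. The table deposited by the authors gives CPM per sample under headings that call them counts, with the authors' log2 fold change and p-value per feature. The tools named per the submitters' processing notes are edgeR, HTSeq, Bowtie, TopHat2 2.0.13 and cutadapt 1.8.1, with build sacCer3. The sources used here give no annotation, counting mode or strand setting. All deposited CPM values (100%) lay within 0.001 reads of whole multiples of the value of 1 read, so whole reads were recovered. edgeR's TMM factors returned the deposited CPM. A floor of 3 reads is 0.212 to 0.237 CPM, for counting error only.

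The test was limma 3.58.1 (trend) in R 4.3.3 on log2(CPM + 1), for 6296 features with at least 1 CPM in 2 samples, adjusted by Benjamini-Hochberg at 0.05. Fold changes on this scale understate the change of low genes. The count tests, edgeR 4.0.16 (4322 features called) and DESeq2 1.42.0 (3918 called), were run on the recovered reads as alternatives to limma (4313 called). The length trend was removed by lowess (span 0.3) on log2 coding length in each library. It and the test were checked on simulated reads in which few features changed. That check does not cover data in which most features pass, as here. In the authors' deposited table HTA2 had a log2 fold change of -1.64, and HHT1 a false discovery rate of 0.081. Coding sequences, neighbours and upstream regions came from the R64 RefSeq genome, to which 6047 features (84.9%) matched by locus tag.

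The members and lists were chosen with earlier results of these data known. The genes named are all 10 members, their annotated neighbours, CSE4, the cell type markers and the 5 nearest profiles. Per list, up to 4 called genes with the largest change are named.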

Additional observations from a re-analysis of the deposited data

How the results depend on the processing

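Of 170 member values under alternatives, 148 kept direction and call. HTA2, HHF1 and HHO1 kept theirs under all 17. With the coding length trend removed, without or with the replicate block, 7 members were called higher and 1 lower, their median was 0.447, and HTB1 (0.516), HHT1 (0.279), HHF2 (0.378) and HTZ1 (0.106) turned sign; the cause was not tested. HTB1, near 0, also turned in DESeq2 (0.0039), with library size only (0.021) and without manganese-adapted replicate 2 (0.0065) or control replicate 2 (0.042), and ran from -0.044 to 0.042 over samples left out. Leaving out each sample, the median of the members ran from -0.13 to -0.029, members called higher stayed at 2 and members called lower ran from 2 to 4. The summed core level (manganese-adapted minus control) was -59.9 CPM, 5.32 CPM with library size only, and -137 to 16.9 CPM over samples left out. Differences in copy shares kept their sign over samples left out, at 16.6 to 19.8 percentage points for HTA1, 5.51 to 8.94 for HTB1, -5.15 to -4.69 for HHT1 and 10.7 to 13.2 for HHF1. Of 204 counts over lists, 192 stayed within 1.5 times.

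The replicate numbers are not stated to pair samples, so they are not taken as pairs. Deviations of same-numbered samples correlated at r = -0.18 across features, which cannot show whether the samples were paired. The replicate block gave 4196 called features and changed no member's call, with 2 higher and 3 lower. The crossed pairing, added after the data were seen, gave 4426 called features with the same member counts.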
